A study of Homo sapiens with 12 samples.

Results

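CDK2AP2, PLPP5, AMIGO3, ARHGDIA and UGDH are 5 genes of 18404 tested whose RNA level changed when the endoplasmic reticulum (ER) oxidase Ero1α was induced, although none is among the textbook genes of the unfolded protein response. They were selected on the measured difference between induced and uninduced arrays, so their induction responses are given here as descriptions without a test. All 5 were found by gene symbol on the array, through 6 probe sets, and all 5 lay above the median level of the probe sets. The material was HEK-293 Flp-In T-REx, an established human embryonic kidney line with a single landing site for a transgene behind a doxycycline-controlled promoter. A pair of stable lines had been made from it, one with Ero1α-WT and one with Ero1α-C104A/C131A, in which cysteines that form regulatory disulfides were replaced by alanine. Each line was left without doxycycline or received it for 24 h, which gave 4 groups of 3 biological replicates, lettered A to C. All cells were kept in hygromycin B and blasticidin. The labels do not say whether each stable line is 1 clone, so a difference between the lines and a difference between the transgenes cannot be told apart. An effect of doxycycline itself cannot be told apart from one of the transgene, since cells lacking the transgene were not analysed here.

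Ero1α passes oxidising equivalents to protein disulfide isomerase, which forms disulfide bonds in newly made proteins. When folding in the ER is disturbed, the sensors IRE1, PERK and ATF6 start the unfolded protein response, and the transcription factors XBP1, ATF4 and ATF6 raise chaperones, folding enzymes and degradation factors. ATF6 and XBP1 act with the factor NF-Y at promoter elements in which a CCAAT box and a CCACG stretch stand a fixed distance apart. The genes studied here are best known for other roles. CDK2AP2 encodes a small relative of CDK2AP1, a binding partner of the cell cycle kinase CDK2. PLPP5 is a membrane enzyme of the lipid phosphate phosphatase family. UGDH oxidises UDP-glucose to UDP-glucuronate, the sugar donor for glycosaminoglycans and glucuronides. AMIGO3 is a transmembrane protein with leucine-rich repeats and an immunoglobulin domain.

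The upstream sequences of 4 of the genes are shown because the genes rose or fell with an ER oxidase, and that of HSPA5, the ER chaperone BiP, because it carries the classical element. They come from RefSeq on GRCh38.p14. Each line gives the bases before the annotated start, 5′ to 3′ on the gene's strand, all on the minus strand of the chromosome, and capitals mark CCAAT and CCACG on either strand.
CDK2AP2: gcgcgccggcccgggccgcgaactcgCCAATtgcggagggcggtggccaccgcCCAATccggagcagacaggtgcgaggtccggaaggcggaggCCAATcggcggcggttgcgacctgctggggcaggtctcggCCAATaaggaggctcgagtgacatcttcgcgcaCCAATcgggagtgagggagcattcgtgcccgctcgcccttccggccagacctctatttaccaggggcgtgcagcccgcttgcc
UGDH: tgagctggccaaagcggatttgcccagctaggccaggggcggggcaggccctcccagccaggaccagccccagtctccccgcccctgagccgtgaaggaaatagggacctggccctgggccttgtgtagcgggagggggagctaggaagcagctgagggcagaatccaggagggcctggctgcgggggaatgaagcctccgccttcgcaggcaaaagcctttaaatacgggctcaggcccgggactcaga
AMIGO3: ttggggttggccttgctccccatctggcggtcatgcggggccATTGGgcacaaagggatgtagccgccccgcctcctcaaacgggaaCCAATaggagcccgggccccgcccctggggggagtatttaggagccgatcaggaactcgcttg
ARHGDIA: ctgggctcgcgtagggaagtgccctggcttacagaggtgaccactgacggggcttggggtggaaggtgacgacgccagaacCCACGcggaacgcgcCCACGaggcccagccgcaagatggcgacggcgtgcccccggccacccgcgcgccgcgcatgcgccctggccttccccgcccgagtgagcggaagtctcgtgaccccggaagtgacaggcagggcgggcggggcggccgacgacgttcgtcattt
HSPA5: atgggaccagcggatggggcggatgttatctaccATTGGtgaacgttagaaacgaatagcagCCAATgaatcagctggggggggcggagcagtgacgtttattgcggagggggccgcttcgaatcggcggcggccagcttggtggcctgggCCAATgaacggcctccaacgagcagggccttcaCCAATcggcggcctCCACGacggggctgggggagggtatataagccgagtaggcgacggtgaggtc
These are chr11:67508163-67508412 for CDK2AP2, chr4:39527440-39527689 for UGDH, chr3:49719685-49719834 for AMIGO3 (150 bases), chr17:81871338-81871587 for the first of 2 ARHGDIA starts and chr9:125241344-125241593 for HSPA5. PLPP5 has no entry in the table.

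The CDK2AP2 sequence held 5 CCAAT boxes, all on the gene's own strand, beginning 224, 197, 156, 116 and 83 bases before the start. Of 35116 RefSeq promoters of the same 250 bases, 0.319% held at least 5 on either strand. AMIGO3 held 2, beginning at 108 bases (opposite strand) and 63 bases, as at least 2 did in 9.53% of promoters. HSPA5 held 4, and UGDH and ARHGDIA held none. CCAAT was added to the motifs after the sequences had been seen. The full ER stress element, in which 9 free bases separate CCAAT from CCACG, was found in HSPA5 and in 0.074% of all promoters, and in none of the 4 genes. The second ER stress element, ATTGG and CCACG with 1 free base between them, and the UPR element core TGACGTGG were also absent from the 4 windows (0.0513% and 0.612% of all promoters held them), as were the cyclic AMP element TGACGTCA (1.65%) and the C/EBP-ATF element TGATGNAA (3.14%). ARHGDIA held CCACG 2 times before its first start, beginning at 169 and 154 bases, as at least 2 did in 9.39% of promoters, and 1 time before the second, as at least 1 did in 33.5%. It also held TGACNNNGC, the core of the antioxidant response element, beginning at 206 and 184 bases before the first start. None was found before the second start. At least 1 was held by 10.9% of promoters, and the share with at least 2 was not computed. Every motif was searched on both strands, and CCACG and CCAAT overlap the longer elements that contain them. These are matches of letters in a short window and were not measured as binding sites.

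The levels are log2 values made with RMA, so a difference of 1 is a doubling. The median of each array was 6.36 to 6.43, and arrays of a group correlated with r of 0.992 to 0.996 across probe sets; the number of arrays limits the precision. Of 7 markers usual in this cell line, 6 were above the median level of the probe sets (VIM, KRT8, KRT18, NEFL, CDH2 and PAX2, but not NEFM), against 0 of 4 leukocyte and 0 of 4 endothelial markers, 1 of 5 fibroblast (COL1A1) and 1 of 4 hepatocyte markers (APOA1). Of the 24 measured markers, 0 were called on induction in either line (limma, and the model without moderation), with 2 in the WT line and 0 in the other at an unadjusted p of 0.05. ERO1A rose by 2.13 ± 0.06 in the WT line and by 2.43 ± 0.06 in the C104A/C131A line on the log2 scale (SE), which checks the induction labels but not which line carries which transgene. Its mean was 10.55 uninduced and 12.68 induced in the WT line. In the C104A/C131A line the means were 10.12 and 12.54, so the larger rise began from a lower uninduced level.

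CDK2AP2 was higher after induction in both lines, with overlapping induced levels. In the WT line its log2 level was 8.06, 8.03 and 8.01 on the uninduced arrays and 8.71, 8.54 and 8.50 on the induced arrays. In the C104A/C131A line it was 8.07, 8.23 and 8.10 uninduced and 8.64, 8.53 and 8.51 induced. The 6 induced arrays all lay above the 6 uninduced ones, and the induced arrays of the lines overlapped. The response was 1.46-fold in the WT line (95% interval 1.32 to 1.62) and 1.34-fold in the C104A/C131A line (1.21 to 1.49). It ranked 14th from the highest of all genes in the WT line and 54th in the other.

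PLPP5 was higher after induction in both lines and reached its highest level in the C104A/C131A line. It stood at 7.67, 7.70 and 7.79 uninduced and 8.13, 8.26 and 8.24 induced in the WT line, and at 7.79, 7.63 and 7.73 uninduced and 8.41, 8.48 and 8.36 induced in the C104A/C131A line. The uninduced arrays of the lines overlapped, whereas each induced array of the C104A/C131A line was above each induced array of the WT line. The response was 1.41-fold (95% interval 1.28 to 1.55) in the WT line and 1.63-fold (1.48 to 1.79) in the C104A/C131A line, a log2 difference of 0.21 between the responses (0.01 to 0.40).

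UGDH was higher after induction in both lines, with the larger estimate in the C104A/C131A line. Its log2 level was 9.48, 9.69 and 9.72 uninduced and 9.91, 9.97 and 9.90 induced in the WT line. In the C104A/C131A line it was 9.59, 9.49 and 9.63 uninduced and 9.94, 10.10 and 9.99 induced. All induced arrays were above all uninduced arrays, and WT uninduced A was the lowest of the 12. The response was 1.23-fold (1.10 to 1.37) in the WT line and 1.36-fold (1.22 to 1.51) in the C104A/C131A line, and the difference of the responses was 0.14 on the log2 scale (-0.08 to 0.36).

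AMIGO3 was higher after induction in the WT line and was low throughout the C104A/C131A line. It was at 8.11, 8.16 and 8.24 uninduced and 8.47, 8.59 and 8.57 induced in the WT line. In the C104A/C131A line it was at 7.68, 7.66 and 7.70 uninduced and 7.75, 7.78 and 7.87 induced. The highest array of the C104A/C131A line lay below the lowest of the WT line, and within each line the induced arrays lay above the uninduced ones. The response was 1.30-fold (1.19 to 1.41) in the WT line and 1.09-fold (0.999 to 1.18) in the C104A/C131A line, with a log2 difference of -0.26 (-0.43 to -0.08).

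ARHGDIA was lower after induction in the C104A/C131A line, with an estimate near 0 in the WT line. In the WT line it was at 10.56, 10.49 and 10.47 uninduced and 10.46, 10.47 and 10.46 induced, a ratio of 0.970 (0.900 to 1.05). In the C104A/C131A line it was at 10.35, 10.41 and 10.36 uninduced and 10.08, 10.10 and 9.99 induced, a ratio of 0.801 (0.743 to 0.864). The 3 induced arrays of this line were the lowest of the 12. The log2 difference of the responses was -0.28 (-0.43 to -0.12). A second ARHGDIA probe set, to which the platform annotation assigns the same 19 transcript records, gave a smaller change: its log2 difference was -0.20 (-0.33 to -0.08) in the C104A/C131A line and -0.03 (-0.15 to 0.10) in the WT line. The mean of both probe sets gave -0.26. Neither the second probe set (adjusted p = 0.468) nor the mean (adjusted p = 0.0759, limma) was within the calls.

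**Figure D1:**
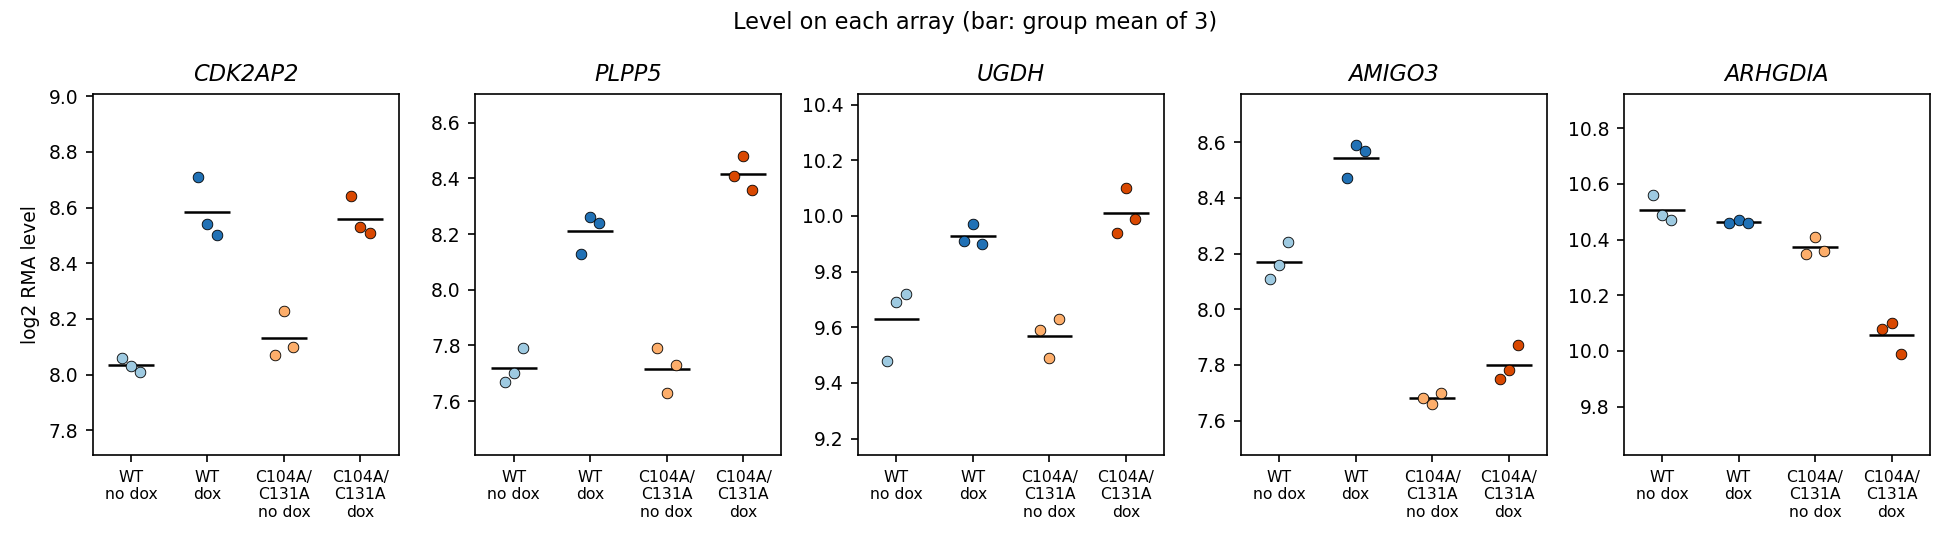
Log2 RMA level (vertical axis, each panel spanning the same range) of the 5 genes on the 12 arrays, by line and doxycycline (dox); points are arrays and bars are means of 3. CDK2AP2, PLPP5 and UGDH are higher on all 6 induced arrays, AMIGO3 is lower on every C104A/C131A array, and ARHGDIA is lowest on the 3 induced C104A/C131A arrays, at 9.99 to 10.10.

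In the WT line the induction responses of CDK2AP2, PLPP5 and AMIGO3 were within the calls at an adjusted p of 0.05 in limma, 3 of 5, where 0.114% of all genes passed (21 genes, each higher). In the C104A/C131A line they were CDK2AP2, PLPP5, UGDH and ARHGDIA, 4 of 5, where 0.326% passed; 59 genes were higher (0.321%) and ARHGDIA, by its probe set with the highest mean, was the single lower one (0.00543%). Since the genes were picked for this, the counts say nothing further about them. The calls also hang on single arrays. The WT count fell to 0 without WT uninduced B, to 1 (CDK2AP2) without WT induced B or WT induced C, and to 2 without WT uninduced A or without any 1 of the 3 uninduced C104A/C131A arrays, through the spread that the lines share. With the 6 WT arrays fitted alone, none of the 3 was within the calls (adjusted p of 0.123, 0.123 and 0.392 for CDK2AP2, PLPP5 and AMIGO3, limma). The C104A/C131A count fell to 1 (PLPP5) without uninduced A, uninduced C, induced A or induced C of that line, to CDK2AP2 and PLPP5 without uninduced B, and to PLPP5 and ARHGDIA without induced B. With the 6 arrays of that line fitted alone, PLPP5 kept its call (adjusted p = 0.0115, limma), while CDK2AP2, ARHGDIA and UGDH had adjusted p values of 0.124, 0.178 and 0.113. Leaving out any 1 array moved the log2 response of CDK2AP2 no further than 0.48 to 0.59 in the WT line, and that of ARHGDIA no further than -0.34 to -0.29 in the C104A/C131A line.

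Set beside reference genes of the response, the 4 genes that rose had smaller changes than HSPA5, which rose 1.59-fold in the WT line and 2.20-fold in the C104A/C131A line. DNAJB9, an ER co-chaperone raised by XBP1, rose 1.64-fold and 1.54-fold. DDIT3, which encodes CHOP of the PERK arm, was at 1.25-fold in the WT line (adjusted p = 0.567, limma) and rose 1.44-fold in the other (adjusted p = 0.0156, limma), a call lost without uninduced A, uninduced B, induced A or induced B of that line (adjusted p up to 0.104). For CDK2AP2 and DNAJB9 the estimate was larger in the WT line, with log2 differences between the responses of -0.12 (-0.33 to 0.09) and -0.09 (-0.37 to 0.19), while for HSPA5 it was larger in the C104A/C131A line by 0.46 (0.29 to 0.64). Over all 18404 genes, limma called 0 differences of the responses at an adjusted p of 0.05, as did the same model without moderation of the variance, with 774 at an unadjusted p of 0.05 and a smallest adjusted p of 0.185. The differences given for the 5 genes are estimates with their intervals.

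The level averaged over both states was compared between the lines and tested, since in this balanced layout its error is uncorrelated with those of the induction contrasts. The average does take in the induced arrays, whose values chose the genes. The test also shares its residual variance with the induction contrasts, so it is not independent of the choice. AMIGO3 was at 0.652-fold in the C104A/C131A line (95% interval 0.614 to 0.692, adjusted p = 3.1e-07, limma), lower on 6 of 6 arrays than on any WT array. ARHGDIA was at 0.830-fold (0.787 to 0.876, adjusted p = 9.14e-05, limma), again with all 6 arrays below all 6 WT arrays, and its second probe set was at 0.847-fold (adjusted p = 0.000663, limma over all single-symbol probe sets). On the uninduced arrays alone the log2 difference of ARHGDIA was -0.13 (-0.24 to -0.02) and was not past the threshold (adjusted p = 0.0898, limma). PLPP5, at 1.07-fold, missed the threshold (adjusted p = 0.0989, limma). CDK2AP2 was at 1.03-fold (0.954 to 1.10) and UGDH at 1.01-fold (0.932 to 1.09), neither past the threshold. So 2 of 5 differed, both lower, where 32% of all genes were called, 15.3% higher and 16.7% lower; a share of this size is near that of all genes. AMIGO3 was the 250th lowest of 18404 genes in this comparison and ARHGDIA the 1328th.

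By state, the log2 difference between the lines for AMIGO3 was -0.49 ± 0.06 (SE) uninduced and -0.75 ± 0.06 induced, and for ARHGDIA -0.13 ± 0.05 and -0.41 ± 0.05. For PLPP5 it was 0.21 ± 0.06 on the induced arrays, with the uninduced means both at 7.72. These values share arrays with the contrasts used to choose the genes and are given as descriptions.

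**Figure D2:**
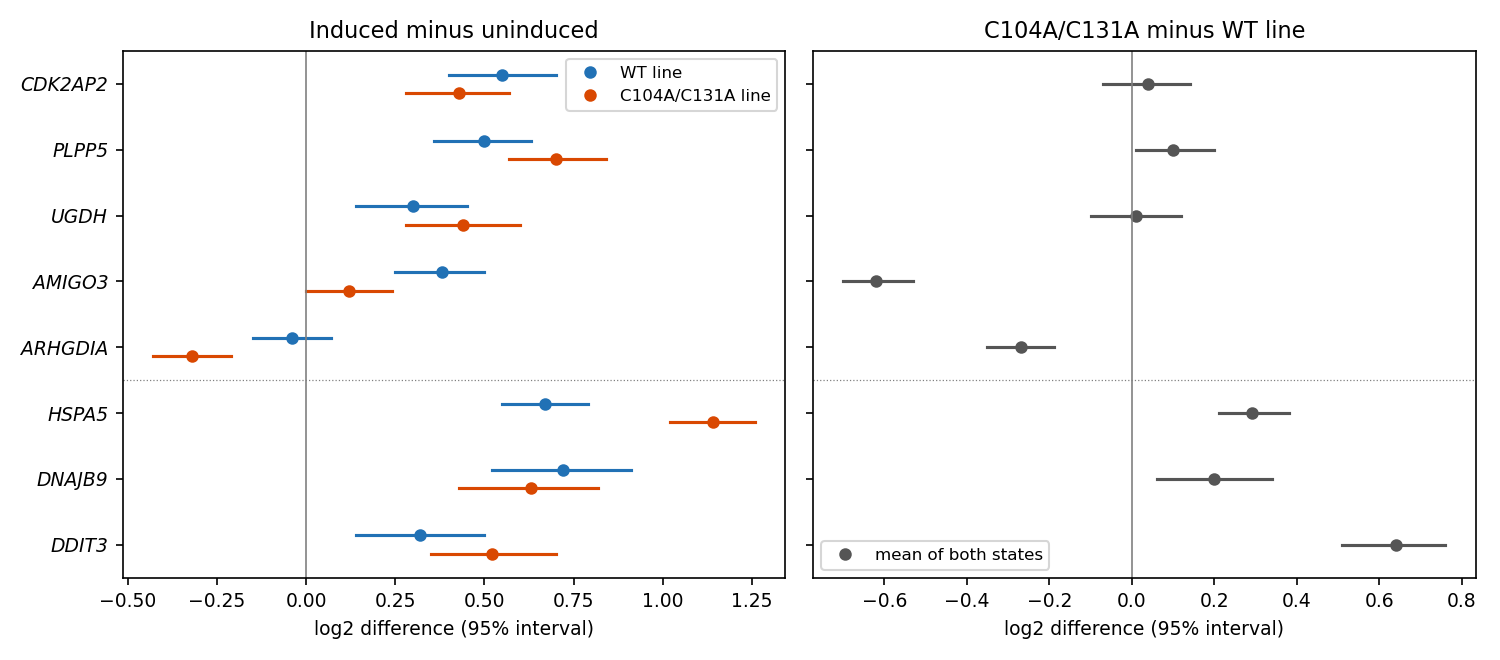
Log2 differences with 95% intervals (horizontal axis) for the 5 genes above the dotted line and for HSPA5, DNAJB9 and DDIT3 below it; left, induced minus uninduced in each line, right, C104A/C131A minus WT line over both states. ARHGDIA is the gene to the left of 0 on induction, at -0.32 in the C104A/C131A line, and AMIGO3 and ARHGDIA lie left of 0 between the lines, at -0.62 and -0.27.

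The neighbours of each gene were examined next, because an array signal can include RNA of overlapping transcripts. AMIGO3 (chr3:49716829-49719684, minus strand) lies inside the span of RNF123, a ubiquitin ligase gene on the plus strand, and starts 231 bases past the end of GMPPB, which makes GDP-mannose and is on the same strand. The platform annotation assigns 1 transcript record to both the AMIGO3 and the GMPPB probe set, so their signals may be shared in part, which was not tested. GMPPB was at 7.55, 7.68 and 7.58 uninduced and 7.71, 7.98 and 7.75 induced in the WT line, and at 7.44, 7.39 and 7.43 uninduced and 7.66, 7.66 and 7.44 induced in the C104A/C131A line. Its log2 change on induction was 0.21 (0.03 to 0.39) in the WT line and 0.17 (-0.01 to 0.34) in the other, neither past the threshold (adjusted p = 0.996 and 0.861, limma). Between the lines GMPPB was at 0.868-fold (adjusted p = 0.0166, limma) and RNF123 at 0.920-fold (adjusted p = 0.0312), both lower as AMIGO3 was. The RNF123 call was lost on leaving out any of 8 arrays, all except WT uninduced A, WT induced C, C104A/C131A uninduced B and C104A/C131A induced B (adjusted p up to 0.0789), whereas that of GMPPB held without each array (up to 0.0445).  MST1, the nearest measured gene on the other side, was at 1.10-fold between the lines (adjusted p = 0.163, limma). On induction RNF123 had negative estimates, -0.07 and -0.13, that did not pass. Within 500 kb of AMIGO3, 12 of 26 other measured genes were lower in the C104A/C131A line and 0 higher, where 16.7% of all genes were lower. The one gene there with a larger decrease was SLC38A3, an amino acid transporter gene, with a log2 difference of -0.69 ± 0.06 (SE). None of the 26 was called on induction in either line by limma or without moderation. Of all genes limma called 0.114% in the WT line and 0.326% in the other. At an unadjusted p of 0.05, 2 of the 26 passed in each line.

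ARHGDIA (chr17:81867721-81871337, minus strand) has P4HB, which encodes protein disulfide isomerase itself, the partner that Ero1α oxidises, as its nearest measured neighbour, 7185 bases away on the same strand. On induction in the C104A/C131A line their values moved in opposite directions. P4HB was at 11.98, 12.01 and 12.05 uninduced and 12.33, 12.34 and 12.28 induced in the C104A/C131A line, a rise of 1.23-fold (adjusted p = 0.0191, limma), and was at 1.15-fold in the WT line (adjusted p = 0.456). Its call in the C104A/C131A line was lost without any 1 of the uninduced arrays or without induced A or induced B of that line, with log2 estimates of 0.29 to 0.32 throughout and adjusted p values up to 0.13. P4HB was the only one of 40 other measured genes within 500 kb called on induction in the C104A/C131A line. Of all genes 0.326% were called there. None of the 40 had a log2 change below that of ARHGDIA, the lowest being -0.16 for SIRT7. ARHGDIA was chosen for its change on induction, which made such a rank likely, so it is a description. On the other side, ALYREF, an RNA export factor gene, had log2 changes of -0.07 and -0.08 in the WT and C104A/C131A lines that did not pass, and was at 0.853-fold between the lines (adjusted p = 0.000512). ALYREF was the single gene of the 40 called lower between the lines and 3 were higher, where 16.7% and 15.3% of all genes were. An RNA gene not measured here, LOC124904086 on the plus strand, overlaps the end of ARHGDIA.

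**Figure D3:**
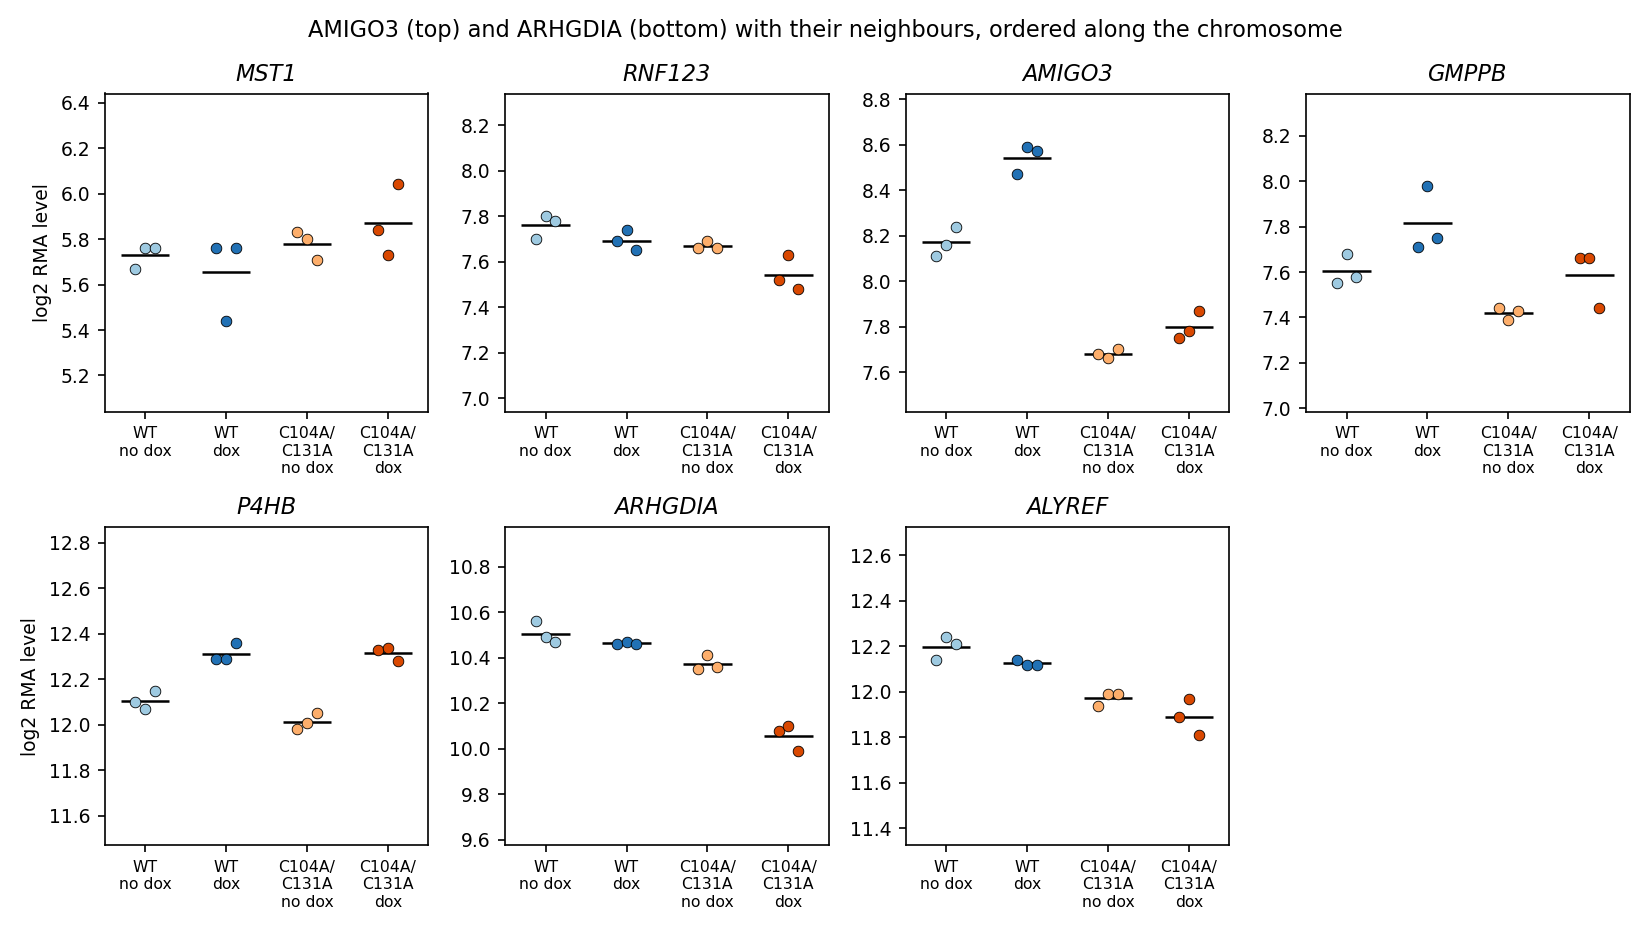
Log2 RMA level (vertical axis) of AMIGO3 with MST1, RNF123 and GMPPB (top) and of ARHGDIA with P4HB and ALYREF (bottom) on the 12 arrays by group; points are arrays and bars are means of 3. P4HB is higher and ARHGDIA lower after induction in the C104A/C131A line, and AMIGO3, RNF123 and GMPPB are each lower in that line over both states.

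CDK2AP2, PLPP5 and UGDH had no called neighbour on induction. Of all genes 0.114% were called in the WT line and 0.326% in the C104A/C131A line, so counts of 0 are near those shares. CDK2AP2 (chr11:67506497-67508162, minus strand) is 230 bases from PITPNM1, whose log2 changes were 0.10 and 0.08 in the WT and C104A/C131A lines, and none of 26 genes within 500 kb was called on induction in either line. PLPP5, on chromosome 8, lies within the span of DDHD2, at -0.07 and -0.01, and is 479 bases from NSD3, at -0.01 and 0.01; none of 17 genes within 500 kb was called. UGDH (chr4:39498755-39527439, minus strand) has SMIM14 as a neighbour at 0.27 (0.07 to 0.46) and 0.16 (-0.04 to 0.36), neither past the threshold (adjusted p = 0.996 and 0.879, limma), and none of 10 genes within 500 kb was called. At an unadjusted p of 0.05, 1 of 26 genes passed in each line around CDK2AP2, 0 of 17 around PLPP5, and 1 of 10 in the WT line around UGDH. In each window, CDK2AP2, PLPP5 or UGDH had the largest increase on induction in both lines. They were chosen for their change on induction, which made such a rank likely, so it is a description.

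Few paralogs and pathway partners were called on induction. Some lay below the median level of the probe sets (6.39) in all 4 groups, where a change can be missed. Among these were AMIGO2 (group means of 5.16 to 5.45) and HAS2 (5.18 to 5.76). Over 5 lists with 79 measured genes other than the 5, 0 passed in the WT line by limma and 1 in the C104A/C131A line (1.27%, against 0.326% of all genes). At an unadjusted p of 0.05 there were 5 and 5 of the 79, where 4.46% and 5.88% of all genes passed, and the model without moderation gave the same 0 and 1. The 1 called gene was GFPT1, the first enzyme of hexosamine synthesis, at a log2 change of 0.31 ± 0.05 (SE, adjusted p = 0.0329). It kept its call in 2 of 12 fits that each left out 1 array, those without WT uninduced A or WT induced A, with estimates of 0.28 to 0.34, and lost it with the replicate letter as a block. The list medians lay between -0.04 and 0.10 in the WT line and between -0.03 and 0.05 in the C104A/C131A line, where the medians of all genes were 0.00 and -0.01. CDK2AP1, the paralog of CDK2AP2, was at -0.02 (-0.15 to 0.11) and -0.08 (-0.21 to 0.06) in the 2 lines, and none of 14 CDK2 partners was called. The 6 paralogs PLPP1, PLPP2, PLPP3, PLPP4, PLPP6 and PLPP7 had changes between -0.18 and 0.14. None of the 17 genes in the list of lipid phosphate phosphatases and related proteins was called. AMIGO1 was at -0.07 and 0.23, and AMIGO2 at 0.14 and -0.02, in the WT and C104A/C131A lines. Of 23 other genes of UDP-glucuronate and glycosaminoglycan synthesis, 0 passed in either line.

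Between the lines the same lists moved more, as genes in general did: 17 of 79 were higher and 11 lower (35.4%, against 32% of all genes). Among the paralogs, AMIGO1 was lower in the C104A/C131A line by 0.40 on the log2 scale (estimate -0.40 ± 0.06, adjusted p = 0.000258, limma) and AMIGO2 higher by 0.21. CDK2AP1 was lower (-0.18 ± 0.04) and PLPP1 and PLPP4 were higher (0.58 ± 0.05 and 0.33 ± 0.05). LINGO1, a partner of the Nogo receptor, was lower (-0.49 ± 0.06). In the UGDH list, CHSY3 of chondroitin synthesis was higher (1.19 ± 0.11), B4GALT7 of the linker region higher (0.37 ± 0.04) and the hyaluronan synthase HAS2 lower (-0.55 ± 0.11). CDK7 and its cyclin CCNH were higher (0.67 and 0.61) and CCNE1, a cyclin partner of CDK2, lower (-0.23). LPIN1 and SGPP1 of lipid metabolism were higher (0.42 and 0.33). In the hexosamine and GDP-mannose list, 2 of 11 were higher, among them UAP1 (0.21), and GMPPB was the 1 lower. The lists group genes by function. Whether the genes that differed between the lines share a chromosome was not tested.

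Finally, the genes of most similar pattern were listed for each of the 5, by the root-mean-square difference of log2 levels over the 12 arrays after subtraction of each gene's mean. For CDK2AP2 these were XBP1 (0.081), MYDGF (0.085) and CALR (0.115), where the median over all genes was 0.285. For PLPP5 they were SEC24D of the COPII coat (0.055), the acetyl-CoA transporter gene SLC33A1 (0.075) and HSP90B1 (0.089; median of all genes 0.341). For UGDH they were the cargo receptor gene TMED10 (0.065), SLFN11 (0.067) and SSR1 of the translocon (0.070; median 0.239). The nearest patterns to AMIGO3 were those of UFM1 (0.110), SLC38A3 (0.121) and CERS4 (0.122), where the median was 0.350. Each was lower between the lines by 0.52 or more on the log2 scale. Their responses in the WT line were smaller, at 0.11, 0.19 and 0.14 against 0.38 for AMIGO3. In the C104A/C131A line the responses were 0.21, 0.01 and 0.17 against 0.12 for AMIGO3. The nearest patterns to ARHGDIA were those of EEFSEC (0.056), RAB3B (0.066) and TMEM98 (0.070), where the median was 0.208. Their log2 changes were -0.23, -0.19 and -0.18 in the C104A/C131A line. Among the 5 themselves, CDK2AP2, PLPP5 and UGDH were 0.137 to 0.153 apart, and ARHGDIA and AMIGO3 0.287. Genes were ranked on the arrays that chose the 5, so the likeness is a description.

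**Figure D4:**
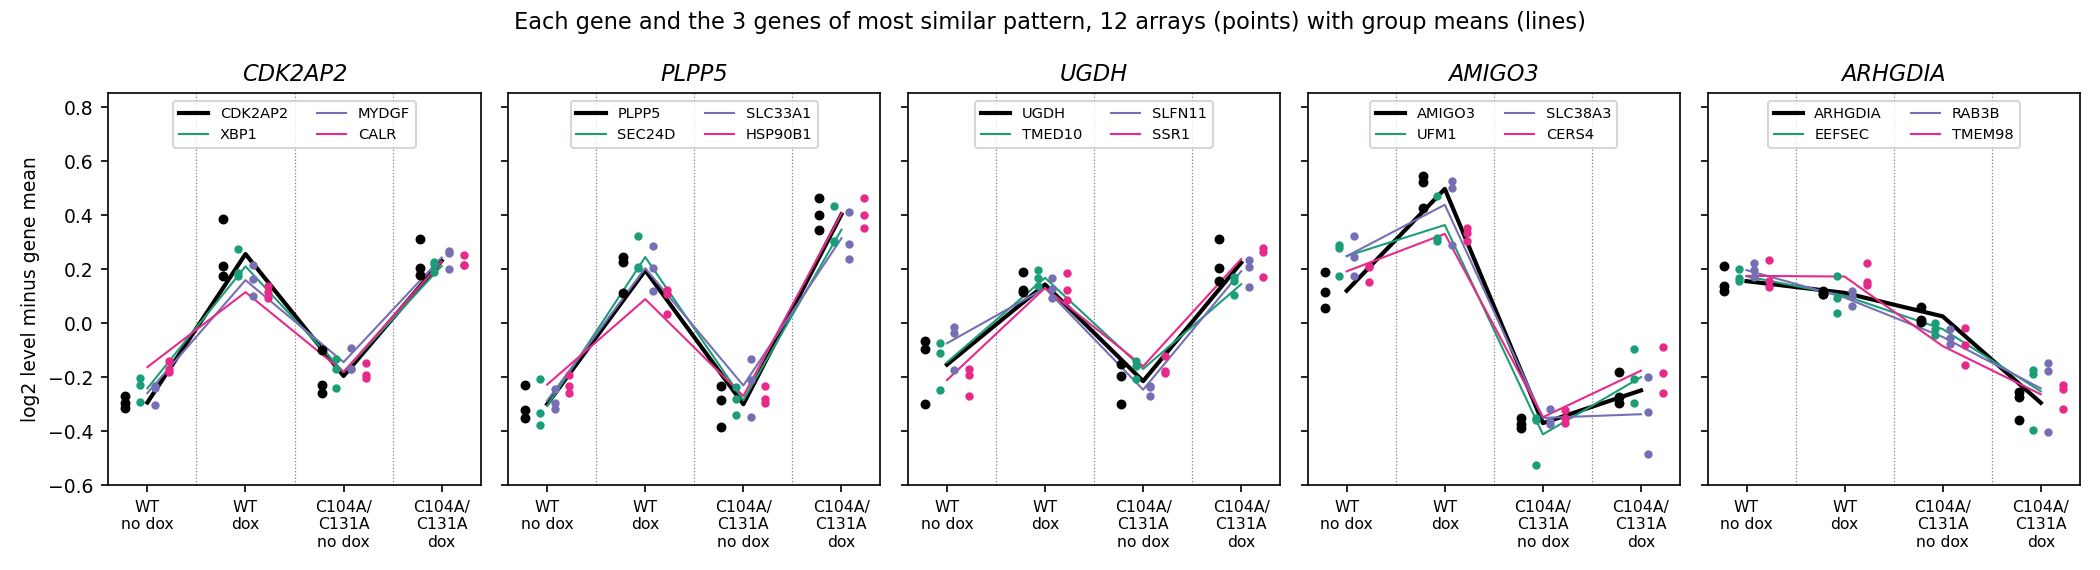
Log2 level minus the gene's mean (vertical axis) in the 4 groups for each of the 5 genes (black) and the 3 genes closest to it (colours); points are the 12 arrays and lines join group means. CDK2AP2, PLPP5 and UGDH rise and fall with doxycycline in both lines, AMIGO3 and its nearest genes step down between the lines, and ARHGDIA with its nearest genes is lowest in the induced C104A/C131A group.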

How the data were processed

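The values are log2 levels per probe set, deposited by the authors in 1 table. The submitters' processing notes name RMA; its version is not given in the sources used here. From the range of 1.06 to 14.10 the log base was read as 2. Of 32321 probe sets, 19158 have 1 gene symbol in GEO's platform annotation, 1388 several and 11775 none. The probe set with the highest mean stood for each of 18404 genes, and 18376 matched the GRCh38.p14 RefSeq table. Probe positions were not used here.

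Groups were taken from titles. With limma 3.58.1 (R 4.3.3) a group-means model was fitted over 12 arrays (lmFit, eBayes, two-sided, Benjamini-Hochberg over all genes at 0.05, 95% intervals), following the two-way layout of the design text, and was tested on simulated data. With nothing said about separate cultures beyond "biological", p-values measure the spread between these samples. The members and lists were chosen with earlier results of these data known. Genes were named by rule: the 5, paralogs, up to 3 called list members, neighbours, nearest patterns and reference genes; SIRT7 was added after its values were seen. A list of genes related to ARHGDIA is not reported here. Windows of 500 kb and the CCAAT motif were also added then.

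Same-letter arrays of the WT line deviated together (r of 0.391, 0.139 and 0.246), which was read as possible pairing. Arrays of different letters were not compared. In the C104A/C131A line r was 0.117, -0.143 and -0.0192. Between the lines, same-letter arrays had r of -0.123, -0.147 and 0.0893 uninduced and 0.32, 0.144 and -0.126 induced. The group-means model had no term for the letter, so its p-values and intervals leave any pairing in the WT line out. The replicate block, an alternative fit, used the same letters in both lines. Pairing in the WT line alone was not tested. Figures used matplotlib 3.10.9.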

Additional observations from a re-analysis of the deposited data

How the results depend on the processing

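Of 428 values recomputed under the alternatives, 423 held. For differences between the lines this meant the same side of the threshold and, for those past it, the same direction. That of UGDH, not past it, changed sign in some fits (-0.03 to 0.03). Responses given without a test held if they moved by less than the spread between replicates, whatever became of their calls. Counts held within 1.5 times. In this balanced layout several alternatives could not move a log2 response, so many responses held by construction. These were the replicate block, the trend and robust prior, no moderation, no dim genes, all probe sets and 1 line alone. Leaving out an array of the other line could not move a response either. Nor could probe set means for the genes with 1 probe set, which are all of the 5 except ARHGDIA. The alternatives changed the scaling (centred arrays), the genes or probe sets fitted (no dim genes, all probe sets, probe set means), the variance (trend and robust prior, array weights, no moderation), the arrays (1 line alone, each array left out) and the pairing (replicate block). With the mean of its 2 probe sets ARHGDIA moved to -0.26 in the C104A/C131A line and to -0.23 for the difference of the responses, and its induction call was lost (adjusted p = 0.0759). The 1 related gene called on induction in that line became 0 with the replicate block or with centred arrays, and 2 with the trend and robust prior. The replicate block changed no call of the 5 genes (3 in the WT line, 4 in the C104A/C131A line, 2 between the lines). It shared the letters across both lines, so it cannot show how pairing in the WT line alone would affect the WT calls. With arrays centred on their medians the WT count was 1 (CDK2AP2) and the C104A/C131A count 3, and with all probe sets 2 in each line. With each line fitted alone the calls were 0 in the WT line and PLPP5 in the other. UGDH passed in the WT line with the trend and robust prior and with array weights. The difference between the lines lay within -0.64 to -0.60 for AMIGO3 and within -0.28 to -0.25 for ARHGDIA, with adjusted p values of at most 5.26e-06 and 0.000477 (limma, and the same model without moderation). Differences of the responses were called for 7 genes without dim genes, 9 with the trend and robust prior and 4 with array weights, none of them among the 5.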
